A study of Mus musculus with 4 samples.

Results

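The genes described here are 45 genes of fatty acid handling in the heart. They were chosen by name, with earlier results of these data known, out of the 48432 gene rows of the study's expression table. By role they comprise 5 genes of uptake, 4 of storage and lipolysis, 5 of activation and thioester cleavage, 6 of the carnitine shuttle, 15 of beta-oxidation, 4 of electron transfer and uncoupling, and 6 transcriptional regulators. Each name matched 1 row, and the authors' status was OK in both groups for all 45. RNA came from mouse cardiomyocytes that had been isolated by Langendorff perfusion of hearts on a C57BL x FVB background. The MHC control group (genotype label MHC, 2 libraries) and the Rbfox2 OE group (genotype label RbFox2, 2 libraries) had both received a diet with doxycycline for 3 days, so the drug is shared by the controls. The series concerns the non-muscle isoform of RBFOX2, an RNA-binding regulator of splicing, in relation to conduction defects of myotonic dystrophy. The promoter that drives the transgene, the age and sex of the animals, and whether a library pools animals are not given in the sources used here.

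The heart covers most of its energy need with fatty acids. Lipoprotein lipase frees them from circulating triglyceride, CD36 and other carriers bring them into the cell, acyl-CoA synthetases activate them, and the carnitine shuttle carries them into mitochondria. There the beta-oxidation enzymes shorten the chain in repeated cycles and pass electrons through electron-transferring flavoprotein to the respiratory chain. The nuclear receptors of the PPAR and oestrogen-related receptor families, with their coactivators encoded by Ppargc1a and Ppargc1b, are known regulators of these genes.

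Each group has 1 value per gene, in FPKM (fragments scaled by transcript length and by sequencing depth), which the authors made with Cuffdiff from that group's 2 libraries and bracketed by 2 bounds. The table gives no value per library, so no test between groups could be run and no p-value is given. The number of fragments behind the values is unknown. Differences are given as log2 ratios of Rbfox2 OE over MHC with a pseudocount of 1 FPKM, among the 11697 genes whose mean over the groups reached 1 FPKM. A gene is counted as lower or higher at a ratio of at least 2-fold on that scale and, separately, where the authors' bounds in the 2 groups do not overlap. Rbfox2, the overexpressed gene, stood at 14.7 FPKM (bounds 10.4 to 19.0) in MHC and at 293 FPKM (bounds 214 to 373) in Rbfox2 OE. The median log2 ratio of all genes was -0.06, and it was 0.07 after rescaling the groups without mitochondrial genes and the 10 most abundant genes, which shifts log2 ratios by up to 0.15.

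Most fatty acid genes had lower levels in the Rbfox2 OE group, by moderate amounts. The log2 ratios were lowest for Esrrg, Acaa1a, Ppargc1a, Acadm, Slc27a1 and Ppara, with overlapping bounds for Acaa1a, Acadm and Ppara. Fewer cardiomyocytes in a preparation and less RNA per cardiomyocyte cannot be told apart here. The value was lower in 40 of the 45 genes, while it was lower in 53.8% of all genes. The 5 genes with a higher value were Angptl4, Acot1, Lipe, Acot2 and Ppargc1b. At least 2-fold lower were 9 of the 45 genes, beside 10.02% of all genes, and 1 was at least 2-fold higher, beside 6.97% of all genes. The bounds were separate with a lower value in 6 genes, beside 9.33% of all genes, and with a higher value in 2 genes, beside 6.66%. For the other 37 genes the bounds of the groups overlap. After rescaling, 5 genes had separate lower bounds, with Acadvl lost. The median log2 ratio of the 45 genes was -0.44. Rescaled, it was -0.30, and the value was lower in the same 40 genes, with Hadh nearest to 0 at -0.02. The shares of all genes after rescaling were not computed, while the median of all genes moved to 0.07.

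The set is abundant in these preparations: 28 of the 45 genes stood at 100 FPKM or more in MHC, and 10 stood under 20 FPKM. The summed level was 20769.5 FPKM in MHC and 13218 FPKM in Rbfox2 OE, which is 4.05% and 2.96% of the summed FPKM of the table. Those totals were 512908 and 446802 FPKM, and they lack the genes listed at 0 without an estimate, such as the abundant heart gene Myh6. Among the 697 genes whose mean reached 100 FPKM, 58.7% had a lower value in Rbfox2 OE and 10.9% were at least 2-fold lower. The median log2 ratio of those abundant genes was -0.12. Of the fatty acid genes, 26 reached that mean, and all 26 had a lower value, with a median of -0.44 and 2 (Acadm and Hadha) at least 2-fold lower.

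Fragments that overlap several genes can be assigned to any of them, and 21 of the 45 genes lie in a locus of the table that holds other genes too. Among the 24 genes alone in their locus, 21 had a lower value, beside 52.5% of all such genes. At least 2-fold lower were 4 of them, beside 9.20%, and 1 was at least 2-fold higher, beside 7.83%. The bounds were separate with a lower value in 2, beside 10.3%, and with a higher value in 2, beside 9.15%. These 4 genes with separate bounds are Slc27a1, Dgat2, Angptl4 and Acot1, while Acadvl, Hadha, Ppargc1a and Esrrg share their locus with other genes.

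**Figure D1:**
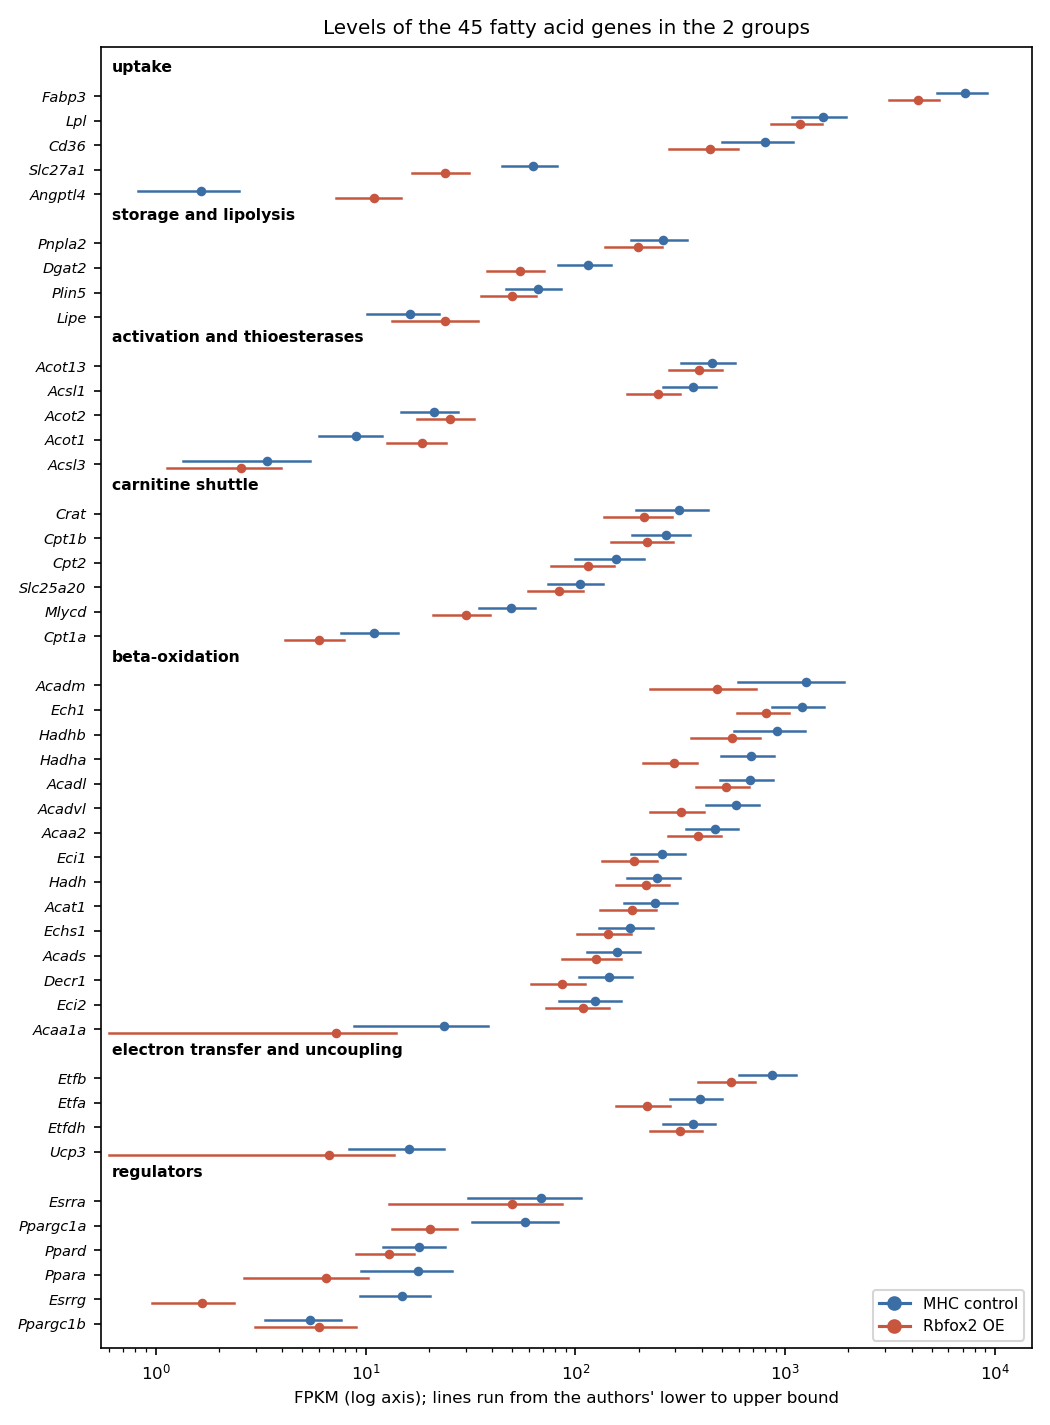
Level of each of the 45 genes in FPKM (log axis) in the MHC control (blue) and Rbfox2 OE (red), by role; points are the authors' pooled values and lines run between the authors' bounds, cut at the left edge for Acaa1a and Ucp3 in Rbfox2 OE. The red point lies left of the blue one in 40 genes, and the lines of a gene overlap in all but 8 genes.

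Markers of cell types moved with the groups and are given here because the RNA came from whole preparations, in which fewer cells of a type and less RNA per cell cannot be told apart. Defining cardiomyocyte genes were abundant in both groups, with Tnnt2 at 10609 and 6917 FPKM and Myl2 at 24688 and 18007 FPKM in MHC and Rbfox2 OE. Of the 12 cardiomyocyte markers, Myh6 is listed at 0 without an estimate. The other 11 had a median log2 ratio of -0.87, with 10 lower and 6 of these with separate bounds, and their level summed to 63465 FPKM in MHC and 39832 FPKM in Rbfox2 OE. The differences among them were unequal: Pln, an inhibitor of the calcium pump, stood at 2613 and 488 FPKM (log2 ratio -2.42). Ryr2, the calcium release channel, stood at 122 and 22.4 FPKM (log2 ratio -2.39), and Ttn, the giant sarcomere protein, had a log2 ratio of 0.60. The ratio of the summed levels was 0.628 for these markers and 0.636 for the fatty acid genes. These sums weigh most on the most abundant genes, such as Myl2 and Fabp3, and the median log2 ratios differed, at -0.87 and -0.44.

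Markers of other cells stood higher in Rbfox2 OE. The summed level of 8 fibroblast markers was 213 FPKM in MHC and 504 FPKM in Rbfox2 OE, and all 8 were higher. For 7 endothelial markers the sums were 209 and 359 FPKM, with all 7 higher, and for 8 macrophage and leukocyte markers 103 and 358 FPKM, with all 8 higher. The 7 smooth muscle and pericyte markers summed to 145 and 326 FPKM, all higher, and the 6 red blood cell markers to 56.6 and 295 FPKM, with Slc4a1 listed at 0 in MHC. The 7 adipocyte markers were near 0 in both groups, summing to 1.15 and 3.13 FPKM, with Lep and Ucp1 listed at 0 in MHC. The part of these other cells in the levels of the fatty acid genes was not tested.

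**Figure D2:**
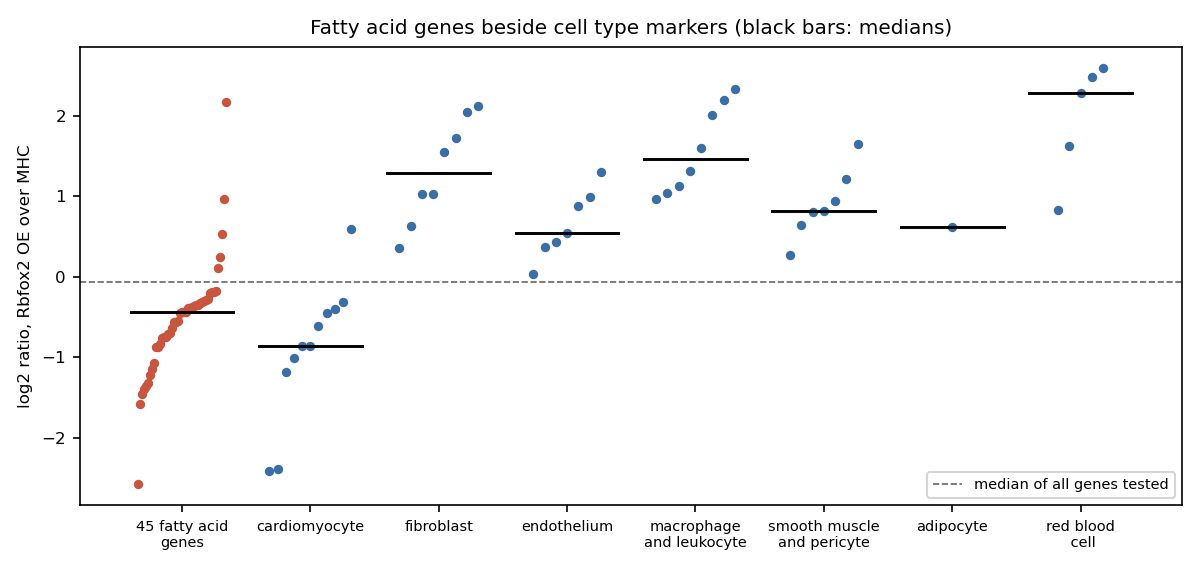
Log2 ratio of Rbfox2 OE over MHC for the 45 fatty acid genes (red) and for markers of 7 cell types (blue), 1 point per gene with a mean of 1 FPKM or more; black bars are medians and the dashed line is the median of all genes (-0.06). The fatty acid genes (median -0.44) and the cardiomyocyte markers (median -0.87) lie mostly below 0, and the markers of the other cell types lie above it.

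Among the genes of uptake, the transporter Slc27a1 was lower and the lipase inhibitor Angptl4 was higher, each with separate bounds. Slc27a1 (GRCm38 chromosome 8, 71568882 to 71587302, plus strand) encodes a fatty acid transport protein of the cell membrane. Its level was 63.1 FPKM (bounds 44.8 to 81.5) in MHC and 24.0 FPKM (bounds 16.7 to 31.3) in Rbfox2 OE, a log2 ratio of -1.36. Angptl4 (chromosome 17, 33773750 to 33781830, minus strand) encodes a secreted inhibitor of lipoprotein lipase. It stood at 1.65 FPKM (bounds 0.820 to 2.48) in MHC and at 11.0 FPKM (bounds 7.24 to 14.7) in Rbfox2 OE, a log2 ratio of 2.17 and a plain ratio of 6.64. Of all genes tested, 100 had a higher log2 ratio than Angptl4. The lipase it acts on, Lpl, stood at 1512 FPKM (bounds 1082 to 1941) in MHC and 1176 FPKM (bounds 853 to 1500.1) in Rbfox2 OE, a log2 ratio of -0.36 with overlapping bounds. Per length, Lpl transcripts outnumbered Angptl4 transcripts 915-fold in MHC and 107-fold in Rbfox2 OE.

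The 2 best known carriers of the heart had lower values with overlapping bounds. Cd36, the fatty acid translocase of the cell surface, stood at 797 FPKM (bounds 500.4 to 1093) in MHC and 436 FPKM (bounds 278 to 594) in Rbfox2 OE, a log2 ratio of -0.87. Fabp3, the fatty acid binding protein of heart cytosol, was the most abundant gene of the set at 7216 FPKM (bounds 5295 to 9137) in MHC. In Rbfox2 OE it stood at 4274 FPKM (bounds 3124 to 5424), a log2 ratio of -0.76. The upper bound in Rbfox2 OE lies just above the lower bound in MHC, and the locus of Fabp3 in the table holds 3 genes, while the annotation has 2 antisense genes that overlap it.

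Among the genes of storage and lipolysis, Dgat2 was lower with separate bounds, and the lipases and the droplet protein differed by less than their bounds. Dgat2 (chromosome 7, 99153658 to 99182719, minus strand) encodes an enzyme of the last step of triglyceride synthesis. It stood at 115 FPKM (bounds 82.3 to 148) in MHC and 54.4 FPKM (bounds 38.1 to 70.8) in Rbfox2 OE, a log2 ratio of -1.07. Rescaled, the ratio was -0.92 and no longer 2-fold. Pnpla2, which encodes the lipase that starts triglyceride breakdown, had a log2 ratio of -0.40, and Plin5, a protein of the droplet surface in oxidative tissue, had -0.39. Lipe, the hormone-sensitive lipase, stood at 16.2 FPKM (bounds 10.1 to 22.3) in MHC and 23.8 FPKM (bounds 13.4 to 34.3) in Rbfox2 OE, a log2 ratio of 0.53. Its locus in the table holds 8 genes.

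Activation and thioester cleavage showed the smallest median difference of the 7 roles, -0.19, and its sign depended on the filter. The long-chain acyl-CoA synthetase Acsl1 stood at 364 FPKM in MHC and 246 FPKM in Rbfox2 OE, a log2 ratio of -0.56 with overlapping bounds, and the low-expressed Acsl3 had -0.30. Acot1 encodes a cytosolic enzyme that cleaves long-chain acyl-CoA into free acid and coenzyme A. Acot1 (chromosome 12, 84009490 to 84018371) stood at 9.01 FPKM (bounds 5.99 to 12.02) in MHC and 18.5 FPKM (bounds 12.7 to 24.3) in Rbfox2 OE. Its bounds are separate and its plain ratio is 2.06, while the log2 ratio with the pseudocount is 0.96, below the 2-fold line. Its neighbour Acot2 (chromosome 12, 83987861 to 83993873), the mitochondrial relative, had a log2 ratio of 0.24 with overlapping bounds. Of the 50-base words of the Acot1 transcript, 23.7% also occur in Acot2, so fragments may be split between these neighbours and both values are uncertain. Acot13, a small thioesterase, stood at 446 and 390.4 FPKM in MHC and Rbfox2 OE.

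All 6 genes of the carnitine shuttle had lower values and all overlapped in their bounds. The outer membrane transferase Cpt1b, the muscle isoform, stood at 269.8 FPKM (bounds 186 to 353) in MHC and 220.4 FPKM (bounds 147 to 293) in Rbfox2 OE, a log2 ratio of -0.29. The liver isoform Cpt1a stood at 10.9 FPKM (bounds 7.61 to 14.3) and 6.01 FPKM (bounds 4.14 to 7.88), a log2 ratio of -0.77 with bounds that nearly separate. Per length, Cpt1b exceeded Cpt1a 24.7-fold in MHC and 36.7-fold in Rbfox2 OE. The other members were the carrier Slc25a20 (log2 ratio -0.32), the inner membrane transferase Cpt2 (-0.44), the carnitine acetyltransferase Crat (-0.55) and Mlycd (-0.70). Mlycd encodes malonyl-CoA decarboxylase, which removes the inhibitor of the shuttle, and stood at 49.5 FPKM in MHC and 30.1 FPKM in Rbfox2 OE.

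All 15 genes of beta-oxidation had lower values, with a median log2 ratio of -0.44 and a range from -1.58 to -0.17. The bounds were separate for Hadha and, as deposited but not after rescaling, for Acadvl. Hadha, Acadm and Acaa1a were at least 2-fold lower. Hadha and Hadhb encode the alpha and beta subunits of the mitochondrial trifunctional protein, which carries out the later steps of each cycle for long chains. Hadha (chromosome 5, 30118304 to 30155162, minus strand) stood at 688 FPKM (bounds 493 to 883) in MHC and 294 FPKM (bounds 209 to 379.6) in Rbfox2 OE, a log2 ratio of -1.22. Hadhb (chromosome 5, 30155248 to 30184593, plus strand) stood at 910.1 FPKM (bounds 572 to 1248) and 556 FPKM (bounds 357 to 755), a log2 ratio of -0.71 with overlapping bounds. The subunit ratio, Hadha over Hadhb per length, was 0.756 in MHC and 0.530 in Rbfox2 OE, and the difference between the subunits was not tested.

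These genes lie head to head, and their RefSeq start sites are 273 bases apart on GRCm38.p6. The GENCODE starts, at 30155162 for Hadha and 30155248 for Hadhb, are closer together. The promoter windows of both genes run from 250 bases before to 50 bases after each RefSeq start. They are printed because the 2 subunits share this stretch of DNA. By the GENCODE coordinates, much of the Hadha window lies inside the gene. Capitals mark the 228 bases that both windows hold, read 5′ to 3′ on the strand of each gene. The Hadha window is chr5:30154931-30155230 on the minus strand and the Hadhb window is chr5:30155003-30155302 on the plus strand.
Hadha: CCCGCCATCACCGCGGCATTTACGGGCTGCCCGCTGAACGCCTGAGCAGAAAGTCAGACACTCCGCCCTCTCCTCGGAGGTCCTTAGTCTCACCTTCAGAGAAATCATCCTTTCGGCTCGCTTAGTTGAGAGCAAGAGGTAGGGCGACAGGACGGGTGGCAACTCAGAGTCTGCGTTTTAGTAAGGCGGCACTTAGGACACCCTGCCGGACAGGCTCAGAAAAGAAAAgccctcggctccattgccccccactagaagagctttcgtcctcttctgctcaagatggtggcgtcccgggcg
Hadhb: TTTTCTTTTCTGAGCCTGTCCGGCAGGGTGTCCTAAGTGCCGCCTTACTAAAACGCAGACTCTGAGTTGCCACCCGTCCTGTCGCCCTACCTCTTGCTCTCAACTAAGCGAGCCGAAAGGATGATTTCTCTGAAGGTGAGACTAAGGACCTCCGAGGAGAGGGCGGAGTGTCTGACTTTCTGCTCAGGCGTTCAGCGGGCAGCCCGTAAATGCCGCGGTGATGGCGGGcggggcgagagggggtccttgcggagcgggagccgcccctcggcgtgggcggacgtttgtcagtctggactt

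The acyl-CoA dehydrogenases, which open each cycle, all had lower values, by unequal amounts. Acadvl, for very long chains, stood at 584 FPKM (bounds 421 to 746) in MHC and 319 FPKM (bounds 228 to 409) in Rbfox2 OE, a log2 ratio of -0.87. Its bounds are separate by a narrow gap as deposited and overlap after rescaling. Acadl, for long chains, stood at 679 FPKM (bounds 487 to 871) and 523 FPKM (bounds 375 to 670.4), a log2 ratio of -0.38. Acadm, for medium chains (chromosome 3, 153922357 to 153944632, minus strand), stood at 1255 FPKM (bounds 594 to 1915) and 475 FPKM (bounds 226 to 723). Its log2 ratio of -1.40 passes the 2-fold line, but its bounds are wide and overlap. Acads, for short chains, had a log2 ratio of -0.33. In MHC the level of Acadm per length was 1.85 times that of Acadl, and in Rbfox2 OE it was 0.908 times. The bounds of these 2 genes overlap each other in both groups, and the change in their order was not tested.

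The remaining enzymes all had overlapping bounds. Acaa1a, whose product is the peroxisomal thiolase, stood at 23.6 FPKM (bounds 8.78 to 38.3) in MHC and 7.23 FPKM (bounds 0.522 to 13.9) in Rbfox2 OE, a log2 ratio of -1.58. Its locus holds 8 genes in the table, its bounds overlap, and it is the least abundant gene of this role. Without it, the 14 other genes had a median of -0.41. Decr1, the dienoyl-CoA reductase for unsaturated chains, had a log2 ratio of -0.75, and Ech1, an isomerase of the same route, stood at 1200.0 and 813 FPKM in MHC and Rbfox2 OE (log2 ratio -0.56). The isomerases Eci1 and Eci2 had log2 ratios of -0.44 and -0.19, and the hydratase Echs1 had -0.35. The closing thiolases Acat1 and Acaa2 had -0.36 and -0.27, and the dehydrogenase Hadh, for short chains, had the smallest difference at -0.17.

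Promoter windows were searched for 3 patterns on both strands: TCAAGGTCA, the site of oestrogen-related receptors, the direct repeat with 1 spacer base (DR1) that PPAR binds with its partner, and AGGTCA, the core that nuclear receptors share and that lies inside the first sequence. RefSeq windows of 300 bases on GRCm38.p6 were found for 35 of the 45 genes, 43 windows in all. TCAAGGTCA and the direct repeat were found in 0 of these 43 windows, beside 0.423% and 0.381% of all 32851 windows. At shares this low, 0 matches in 43 windows would be usual for any genes, so this count says nothing particular about the set. AGGTCA was found in 8 windows of 7 genes (18.6%), beside 16.3% of all windows: Acadm, Acadvl, Cd36, Cpt1a, Echs1, Plin5 and Ucp3. That share is close to the share of all windows, so it says nothing particular about the set either. These matches describe letters in a window and not binding. The windows of 3 genes that were at least 2-fold lower or had separate bounds are printed, with AGGTCA or its reverse complement in capitals. These genes were picked from the 7 by their values, and a link between the match and the level was not tested. They are Acadm (chr3:153944594-153944893, minus strand), Acadvl (chr11:70015379-70015678, minus strand) and Ucp3 (chr7:100472741-100473040, plus strand).
Acadm: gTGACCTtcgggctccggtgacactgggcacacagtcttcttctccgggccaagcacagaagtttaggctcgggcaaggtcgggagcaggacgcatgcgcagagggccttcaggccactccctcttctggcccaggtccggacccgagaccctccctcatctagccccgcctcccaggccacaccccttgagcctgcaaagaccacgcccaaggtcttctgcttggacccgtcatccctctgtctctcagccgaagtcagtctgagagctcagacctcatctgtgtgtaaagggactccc
Acadvl: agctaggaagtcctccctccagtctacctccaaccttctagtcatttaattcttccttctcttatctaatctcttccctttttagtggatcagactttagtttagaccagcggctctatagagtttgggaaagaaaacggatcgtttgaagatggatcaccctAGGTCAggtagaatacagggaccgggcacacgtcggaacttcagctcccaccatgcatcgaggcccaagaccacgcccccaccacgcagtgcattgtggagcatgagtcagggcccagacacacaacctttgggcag
Ucp3: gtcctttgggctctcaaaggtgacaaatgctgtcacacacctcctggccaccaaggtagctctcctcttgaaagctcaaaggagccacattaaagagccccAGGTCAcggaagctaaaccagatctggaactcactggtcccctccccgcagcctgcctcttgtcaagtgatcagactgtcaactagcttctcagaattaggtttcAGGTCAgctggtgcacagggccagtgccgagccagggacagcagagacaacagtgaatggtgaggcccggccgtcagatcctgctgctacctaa
The match begins 249 bases before the start site in Acadm and 87 bases before it in Acadvl, and the 2 matches in Ucp3 begin 149 and 44 bases before it.

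Electron transfer genes had lower values too. Etfa and Etfb encode the subunits of electron-transferring flavoprotein, which takes electrons from the acyl-CoA dehydrogenases. Etfa stood at 391 FPKM (bounds 281 to 501) in MHC and 219 FPKM (bounds 156 to 282) in Rbfox2 OE, a log2 ratio of -0.84. Its upper bound in Rbfox2 OE lies only just above its lower bound in MHC. Etfb stood at 864 FPKM (bounds 604 to 1123) and 553 FPKM (bounds 386 to 721), a log2 ratio of -0.64. The ratio Etfa over Etfb per length was 0.453 in MHC and 0.396 in Rbfox2 OE. Etfdh, the membrane dehydrogenase that hands the electrons on to ubiquinone, had a log2 ratio of -0.21. Ucp3, an inner membrane carrier of muscle, stood at 16.0 FPKM (bounds 8.32 to 23.8) in MHC and 6.70 FPKM (bounds 0 to 13.6) in Rbfox2 OE, a log2 ratio of -1.15 with overlapping bounds.

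**Figure D3:**
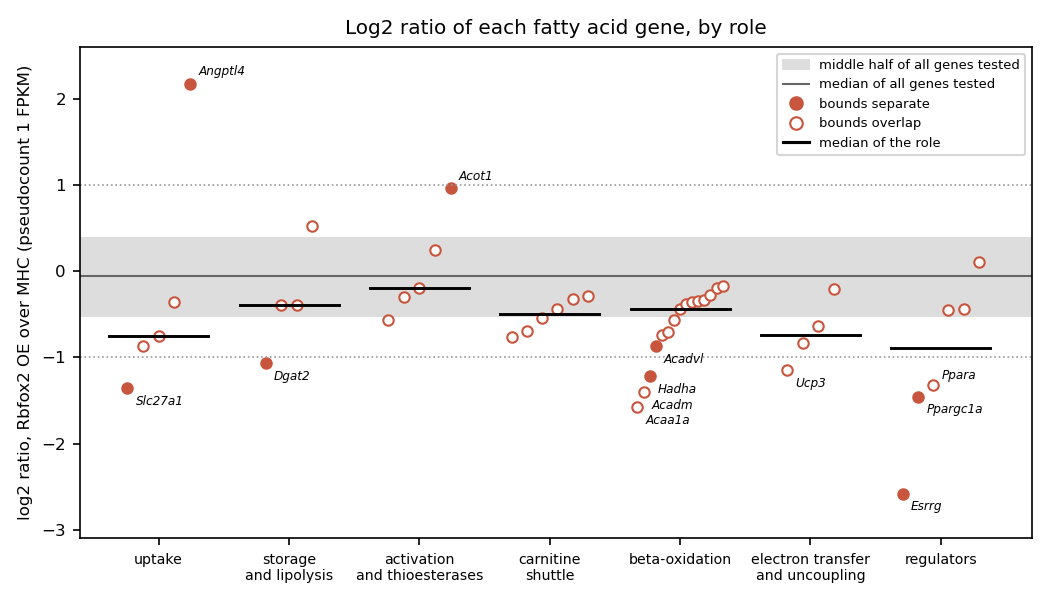
Log2 ratio of each of the 45 genes, Rbfox2 OE over MHC, grouped by role; filled points have separate bounds, open points overlapping bounds, black bars are role medians, the grey band holds the middle of all genes from the lower quartile (-0.52) to the upper quartile (0.38), and dotted lines mark 2-fold. Angptl4 at 2.17 and Esrrg at -2.58 stand farthest from 0, and the genes of the carnitine shuttle and of beta-oxidation all lie below 0.

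The regulators had a median log2 ratio of -0.89 and held the gene with the lowest ratio of the set, Esrrg. Their median was the lowest of the 7 roles, but not with a pseudocount of 5 FPKM, where it was -0.70 beside -0.75 for uptake and -0.73 for electron transfer. Esrrg (chromosome 1, 187608791 to 188214885, plus strand) encodes an oestrogen-related receptor of oxidative tissues. It stood at 14.9 FPKM (bounds 9.46 to 20.4) in MHC and 1.66 FPKM (bounds 0.956 to 2.37) in Rbfox2 OE, a log2 ratio of -2.58 and an 8.98-fold lower plain value. Of the 11697 genes, 48 had a lower log2 ratio. With a pseudocount of 5 FPKM its log2 ratio was -1.58. Its relative Esrra stood at 68.4 FPKM (bounds 30.8 to 106) and 49.8 FPKM (bounds 13.0 to 86.7), a log2 ratio of -0.45 with wide, overlapping bounds.

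Ppargc1a, the coactivator of mitochondrial genes (chromosome 5, 51454250 to 51567726, minus strand), stood at 57.4 FPKM (bounds 32.3 to 82.5) in MHC and 20.3 FPKM (bounds 13.4 to 27.1) in Rbfox2 OE. Its log2 ratio was -1.46 with separate bounds, whereas its relative Ppargc1b stood at 5.46 FPKM (bounds 3.31 to 7.61) and 5.98 FPKM (bounds 2.99 to 8.97), a log2 ratio of 0.11. Ppara, the receptor for fatty acids that governs oxidation genes (chromosome 15, 85734983 to 85802819, plus strand), stood at 17.7 FPKM (bounds 9.54 to 25.9) and 6.47 FPKM (bounds 2.64 to 10.3). The log2 ratio of Ppara was -1.32 and its bounds overlap narrowly. Ppard, the receptor of the same family at a like level in MHC, stood at 18.1 FPKM (bounds 12.1 to 24.0) and 13.0 FPKM (bounds 9.00 to 17.0), a log2 ratio of -0.44. Within each pair of relatives the values thus differed in size, but whether the differences themselves differ was not tested.

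**Figure D4:**
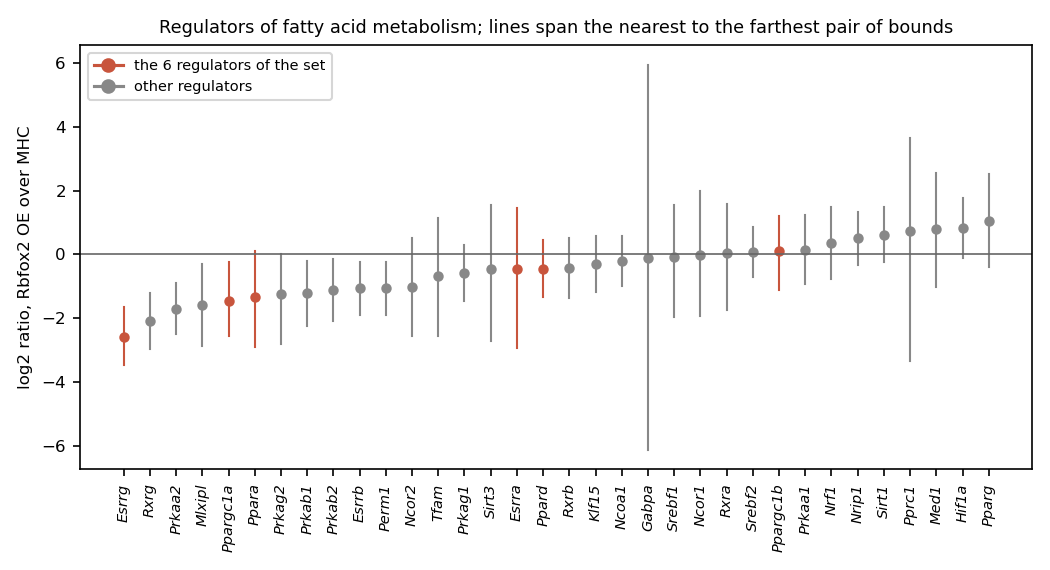
Log2 ratio of Rbfox2 OE over MHC for the 6 regulators of the set (red) and 28 other regulators that reached a mean of 1 FPKM (grey), in order of the ratio; lines span the ratios from the nearest to the farthest pair of the authors' bounds, with the pseudocount. Esrrg (-2.58), Rxrg (-2.08) and Prkaa2 (-1.70) are lowest and Pparg (1.06) is highest.

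A further list of 113 genes of lipid handling outside the set was also chosen with earlier results of these data known. It gave 112 genes in the table, of which 103 had a mean of at least 1 FPKM. Of these, 30 were at least 2-fold lower and 2 at least 2-fold higher, beside the 10.02% and 6.97% of all genes. The bounds were separate for 25 lower genes, beside 9.33% of all genes, and for 1 higher gene, beside 6.66%. That higher gene is Acsl5, an acyl-CoA synthetase at 4.28 and 10.9 FPKM in MHC and Rbfox2 OE, which is named here because of its value. The median log2 ratio of the 103 genes was -0.37. Acacb, the acetyl-CoA carboxylase whose product malonyl-CoA inhibits the carnitine shuttle, had the lowest ratio, at 59.5 FPKM (bounds 40.1 to 78.9) in MHC and 9.02 FPKM (bounds 5.34 to 12.7) in Rbfox2 OE, a log2 ratio of -2.59. Set beside Mlycd, which degrades malonyl-CoA, Acacb per length was 1.203 times as abundant in MHC and 0.299 times in Rbfox2 OE.

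The next lowest of these genes include enzymes, transporters and regulators. Acss2 and Acss1, which activate acetate, had log2 ratios of -2.45 and -1.47. Gpam, the first acyltransferase of glycerolipid synthesis, had -1.98, and G0s2, an inhibitor of the lipase encoded by Pnpla2, had -1.77. Rxrg, a partner receptor of PPAR, stood at 37.7 FPKM in MHC and 8.13 FPKM in Rbfox2 OE (log2 ratio -2.08), while its relative Rxra stood at 21.7 and 22.5 FPKM. Prkaa2, a catalytic subunit of AMP-activated kinase, had -1.70, and the glucose-responsive factor Mlxipl had -1.58. Abcd3, a peroxisomal transporter, had -2.01, and Acad11, an acyl-CoA dehydrogenase, had -1.42. Lmf1, which matures lipoprotein lipase, and the thioesterase Acot11 had -1.50 and -1.51. Each of these genes except Rxra had separate bounds, and so had the muscle regulator Perm1, at -1.06. Gpam, Rxrg, Prkaa2, Lmf1 and Perm1 are alone in their locus. Acss1, Acss2, G0s2, Mlxipl, Abcd3, Acad11 and Acot11 share theirs with other genes, and so does Acacb. The locus holds 10 genes for Acad11, 9 for Acss2 and 7 for G0s2, so how fragments were assigned can affect these values.

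The genes of lipid handling that were to be named whatever their values lay on both sides of 0. Pdk4, a kinase that restrains glucose oxidation, stood at 152 FPKM (bounds 109 to 195) in MHC and 205 FPKM (bounds 147 to 264) in Rbfox2 OE. Plin2, a droplet protein, stood at 42.0 FPKM (bounds 25.6 to 58.5) and 70.7 FPKM (bounds 41.6 to 99.8). Their log2 ratios were 0.43 and 0.74, with overlapping bounds in each. Ucp2, an inner membrane carrier related to Ucp3, had a log2 ratio of -0.47 with overlapping bounds. Pparg stood at 6.40 FPKM (bounds 2.92 to 9.88) and 14.4 FPKM (bounds 7.26 to 21.6), a log2 ratio of 1.06 with overlapping bounds. The capillary genes Gpihbp1, which anchors lipoprotein lipase, and Fabp4 had log2 ratios of 0.74 and 0.42, with overlapping bounds in each. The endothelial markers given above stood higher too, and a link between these values was not tested.

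**Figure D5:**
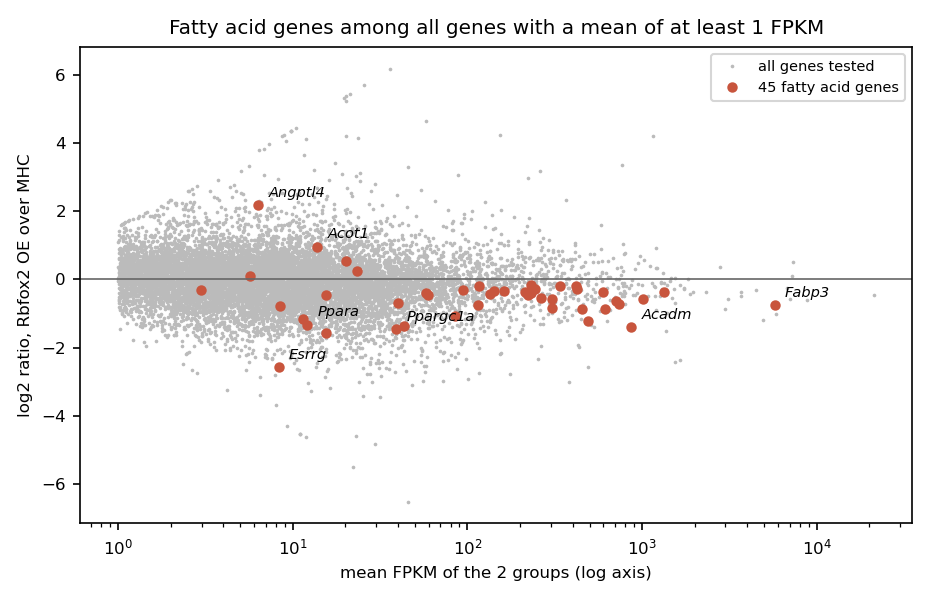
Log2 ratio of Rbfox2 OE over MHC against the mean FPKM of the groups (log axis) for genes with status OK and a mean of 1 FPKM or more (grey) and the 45 fatty acid genes (red). Most red points lie between 0 and -1, 9 lie below -1 and 5 above 0, with Esrrg (-2.58) and Angptl4 (2.17) as the extremes.

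Because RBFOX proteins bind RNA at the letters TGCATG (with U for T in RNA), the 3′ UTRs of the set were searched for them on the transcript strand, with 1 GENCODE M21 transcript per gene. At least 1 match was found in 8 of the 45 genes (17.8%), beside 32.8% of 11059 genes tested that have an annotated 3′ UTR. The 3′ UTRs of the set are shorter, with a median of 602 bases beside 1017 bases. Per kilobase of 3′ UTR the set held 0.275 matches and all genes held 0.346. The median log2 ratio was -0.66 for the 8 genes with a match and -0.44 for the 37 without, and over all genes it was -0.09 and -0.05. The 8 genes ranged from -1.46 to -0.30, and the difference between these medians was not tested. Esrrg, Ppara, Acadm, Hadha, Slc27a1, Angptl4 and Acot1 had no match in this window, which says nothing of binding elsewhere in their transcripts.

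The matches in 3 genes that differ in role are shown with 12 bases on each side and with the motif in capitals, since these are the letters RBFOX proteins are known to bind. Their log2 ratios were -0.87 for Cd36, -0.77 for Cpt1a and -1.46 for Ppargc1a. The other genes with a match were Ucp3 (-1.15), Crat (-0.55), Acat1 (-0.36), Slc25a20 (-0.32) and Acsl3 (-0.30). Cd36 holds 3 matches on the minus strand (chr5:17781964-17781993, chr5:17781800-17781829 and chr5:17781769-17781798). Cpt1a holds 2 on the plus strand (chr19:3385624-3385653 and chr19:3385667-3385696), and Ppargc1a holds 1 on the minus strand (chr5:51456160-51456189). Coordinates are on GRCm38. No binding was measured.
Cd36 site 1: aataatcaaaacTGCATGgcagctttgggc
Cd36 site 2: acccttctgcacTGCATGtggtgatcattt
Cd36 site 3: tacactcaggtaTGCATGcacacatggaat
Cpt1a site 1: taatctgtccatTGCATGtaaataccatat
Cpt1a site 2: aaatcttagaaaTGCATGtgtgaacgaata
Ppargc1a: ttctacccagggTGCATGgcagttgtcagg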

How the data were processed

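Polyadenylated RNA of 4 libraries, 2 per group, was sequenced on an Illumina HiSeq4000, per the labels. The authors' deposited table gives, per gene and group, 1 FPKM value made with Cuffdiff, its bounds and a status, per the file headers. The submitters' processing notes name STAR 2.4.2a, Cuffdiff 2.2.1 and the builds GRCm38 and mm10. Not given in the sources used here are the level of the bounds, the annotation release, and how Cuffdiff normalized and treated strand. Cuffdiff listed 30 genes in MHC and 26 genes in Rbfox2 OE at 0 without an estimate (status HIDATA).

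Rows that share a gene name were summed, genes whose mean over the groups reached 1 FPKM were kept, and log2 ratios with a pseudocount of 1 FPKM were computed with pandas 2.3.3 on Python 3.11.15, tested first on simulated data. Bounds were compared where the status was OK in both groups. Of the 45 genes, 16 overlap an antisense gene, so how fragments were assigned can affect their values. Coordinates come from GENCODE M21 and promoter sequences from RefSeq on GRCm38.p6.

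The 45 genes, their roles and the gene lists were chosen with earlier results of these data known. All 45 genes were to be described. Of the 113 other lipid genes, the 12 largest differences with separate bounds and at least 2-fold were to be named, with 10 more whatever their values, of which 2 are not reported here. The search for TGCATG and the count of genes alone in their locus were added after the values were seen. The alternatives tried concern the pseudocount, the filter, the scaling, the status, repeated names, the fold threshold and the mean in place of the median.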

Additional observations from a re-analysis of the deposited data

How the results depend on the processing

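No paired analysis was possible because both libraries of a group enter 1 pooled value. Leaving out each library was not run for the same reason. The spread between libraries and the depth are unknown, which limits every value here and those near 0 most. Medians were taken as moved beyond 0.1 on the log2 scale and counts beyond 1.5 times. Of 359 alternative values of single genes of the set, 0 had the other sign, and 1 left the span of its bounds: Esrrg at -1.58 with a pseudocount of 5. That pseudocount also ended the 2-fold call of Ucp3 and Ppara and gave medians of -0.70 for the regulators, then no longer the lowest role, and -0.26 for the other lipid genes. Rescaling ended the 2-fold call of Dgat2 and the separate bounds of Acadvl, which left 5 genes with separate lower bounds. It moved the medians to -0.30 for the 45 genes, -0.60 for uptake, -0.25 for storage and lipolysis, -0.041 for activation, -0.35 for the carnitine shuttle, -0.29 for beta-oxidation, -0.59 for electron transfer, -0.75 for the regulators and -0.23 for the other lipid genes. With a pseudocount of 0.1, on rescaling, on centring and at 1.5-fold, 2 genes were higher in place of 1, Acot1 being the added gene each time. At 1.5-fold 18 genes were lower and at 3-fold 1 gene. For these alternative thresholds and scalings the shares of all genes were not computed, so the counts cannot be set beside them. Taking means instead of medians gave -0.23 for uptake, 0.030 for activation, -0.64 for beta-oxidation and -1.02 for the regulators. A minimum mean of 5 FPKM removes Acsl3 and turned the activation median to 0.026. Among the 24 genes alone in their locus, a setting added after seeing the data, 4 were at least 2-fold lower and 2 had separate lower bounds. The other 4 genes with separate lower bounds lie in shared loci, and the cause was not tested.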
